A study of Mus musculus with 9 samples.

Results

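The circadian clock genes described here are Dbp, Tef, Nr1d1, Nr1d2, Per1, Per2, Per3, Arntl, Npas2 and Ciart, found by mouse symbol in a table of liver RNA sequencing counts, where Bmal1 is listed as Arntl. All 10 were among the 21703 rows of the table, and all 10 passed the filter on low counts that left 12651 genes for testing. They were chosen as core and output genes of the clock, and were divided by the time of day at which their mRNA is known to be high in mouse liver. The 8 day-phase genes are those whose mRNA is high in the light phase or around dusk, and the 2 night-phase genes, Arntl and Npas2, are those whose mRNA is high late in the night.

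The study measured RNA in 9 livers of C57BL/6J mice aged 4 weeks, in 3 groups of 3. The control livers carried R26-M2-rtTA, a doxycycline-dependent activator expressed from the Rosa26 locus, and Col-TetOP-Mycl-ires-mCherry, a Mycl gene under a promoter that this activator switches on, and were left untreated. Livers of the Mycl group shared that genotype and were collected 48 h after doxycycline, given intraperitoneally as 0.2 ml of a 2.0 mg/ml solution. The c-Myc group carried R26-M2-rtTA with Col-TetOP-c-Myc-ires-mCherry and had the same injection and interval. Both transgenes encode MYC family transcription factors. Rosa26 is active in most cell types, so the transgenes are not restricted to hepatocytes. No group received doxycycline without a transgene to induce, and uninduced c-Myc livers are not analysed here, so the transgene, the drug and, for c-Myc, the mouse line cannot be told apart. The time of day of collection is not given in the sources used here, and a difference in that hour between groups cannot be told apart from a difference due to the treatment. The labels number the livers within a group without saying how they were obtained, so the p-values measure the spread between these samples.

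Library totals ran from 14043323 to 20079232 counts for controls, from 11013412 to 18887413 for Mycl and from 14088780 to 16482480 for c-Myc. The IRES-mCherry reporter stood at 0.316 to 1.09 CPM, the number of counts per 1e+06 counts of a scaled library, in the control livers, at 52.3, 146 and 270 CPM in Mycl livers 1, 2 and 3, and at 221, 282 and 76.4 CPM in c-Myc livers 1, 2 and 3. The summed CPM of 5 hepatocyte markers ran from 111106 to 125565 in the controls, from 69470 to 116656 under Mycl and from 55091 to 91131 under c-Myc, and no marker of that list was at 0 in all libraries. The summed CPM of 4 cycling cell markers ran from 14.7 to 31.5, from 64.1 to 114 and from 142.5 to 309 in the same order. In whole liver, fewer cells of a type and less RNA per cell cannot be told apart.

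The clock is a feedback loop of transcription. BMAL1, the product of Arntl, pairs with CLOCK or NPAS2 and activates genes with E-boxes, among them the Per and Cry genes, Nr1d1, Nr1d2, Dbp, Tef and Ciart, and the PER and CRY proteins then repress that pair. REV-ERB-alpha and REV-ERB-beta, from Nr1d1 and Nr1d2, repress Arntl and Npas2 through ROR elements, while DBP, TEF and HLF activate genes with D-boxes. In liver these factors time the transcription of genes of bile acid, lipid, glucose and drug metabolism, and feeding, glucocorticoids and body temperature can reset their phase.

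The start regions of the genes are shown because they hold the elements through which members of the loop act on each other. RefSeq gave 12 start windows (GRCm38.p6) for 9 of the 10 genes, each of 250 bases before and 50 after a start, and Per2 had none. Both strands were searched for the E-box CACGTG, the D-box TTATGTAA or TTACGTAA, and the end of a ROR element, TAGGTCA or TGGGTCA. None of these letters overlapped with another match. The E-box was in 7.15% of all 32851 windows of the table, the D-box in 1.06% and the ROR element end in 6.45%. Positions are those of the first base of a match, counted from the start. Below, bases before the start and outside any exon of GENCODE M21 are printed, with matches in capitals, for Ciart (chr3:95882252-95882478, minus strand), Per1 (chr11:69098699-69098947, plus strand), Tef (chr15:81811164-81811413, plus strand, its second start), Per3 (chr4:151044666-151044915, minus strand) and Nr1d1 (chr11:98775378-98775627, minus strand).
Ciart: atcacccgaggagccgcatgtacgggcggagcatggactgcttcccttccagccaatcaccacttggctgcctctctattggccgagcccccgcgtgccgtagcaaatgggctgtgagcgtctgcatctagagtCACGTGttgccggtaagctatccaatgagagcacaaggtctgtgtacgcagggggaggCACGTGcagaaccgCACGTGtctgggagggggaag
Per1: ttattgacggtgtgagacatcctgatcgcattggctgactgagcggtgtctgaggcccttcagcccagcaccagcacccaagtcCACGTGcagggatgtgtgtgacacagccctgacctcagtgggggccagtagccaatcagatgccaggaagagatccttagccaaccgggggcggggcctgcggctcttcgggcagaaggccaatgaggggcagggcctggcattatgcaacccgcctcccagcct
Tef: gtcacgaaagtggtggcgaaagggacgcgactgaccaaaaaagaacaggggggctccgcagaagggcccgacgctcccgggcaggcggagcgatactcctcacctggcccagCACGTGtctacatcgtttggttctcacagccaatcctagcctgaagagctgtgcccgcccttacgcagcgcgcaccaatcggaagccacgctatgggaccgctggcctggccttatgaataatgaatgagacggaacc
Per3: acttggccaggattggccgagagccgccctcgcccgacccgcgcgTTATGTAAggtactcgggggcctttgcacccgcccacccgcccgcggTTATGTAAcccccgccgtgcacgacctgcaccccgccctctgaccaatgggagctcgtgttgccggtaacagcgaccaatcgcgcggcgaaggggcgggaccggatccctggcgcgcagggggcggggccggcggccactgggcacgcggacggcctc
Nr1d1: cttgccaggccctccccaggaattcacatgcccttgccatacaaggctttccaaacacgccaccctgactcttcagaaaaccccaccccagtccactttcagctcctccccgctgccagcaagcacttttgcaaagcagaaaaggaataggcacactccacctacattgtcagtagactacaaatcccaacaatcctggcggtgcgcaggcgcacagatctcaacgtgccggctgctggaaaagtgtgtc

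Ciart held 3 E-boxes, at -116, -58 and -44, a number reached by 0.0883% of all windows. Per1 held 1 E-box, at -166 in its first window, which is the window shown, and no match in its second. Tef held 1 E-box at -127 in its first window and 1 at -138 in the window shown. Per3 held 2 D-boxes, at -205 and -158, a number reached by 0.0244% of windows. The second Arntl window held a ROR element end 30 bases after the start. The windows of Nr1d1, Nr1d2, Dbp and Npas2 had no match, which says only that these letters are not in these windows. A match is a sequence of letters and not a measured binding site. Of the 3 genes with an E-box in this window, Tef passed as lower in c-Myc livers, Per1 passed as higher in Mycl livers and Ciart passed in neither. For c-Myc the log2 differences of Tef, Per1 and Ciart from the controls were all below 0, at -0.71, -0.28 and -0.84. For Mycl they were -0.36, 1.07 and -0.10. Over all tested genes, 54.8% were below 0 for c-Myc and 49.2% for Mycl. With libraries scaled by their totals, the Per1 difference for c-Myc was 0.087. Whether the 3 genes differ from each other was not tested.

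In control livers, the levels per kilobase of exon spanned a wide range. Nr1d1 was highest at 39.3 ± 8.86 CPM per kb (SD, n = 3), followed by Nr1d2 at 20.6 ± 0.669, Dbp at 11.5 ± 4.51 and Tef at 9.72 ± 1.47 CPM per kb. Per1 stood at 2.42 ± 0.639, Arntl at 1.80 ± 0.275 and Per2 at 1.48 ± 0.220 CPM per kb. Npas2, Per3 and Ciart were lowest, at 0.658 ± 0.164, 0.630 ± 0.127 and 0.599 ± 0.380 CPM per kb, and did not differ from each other beyond their spread.

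**Figure D1:**
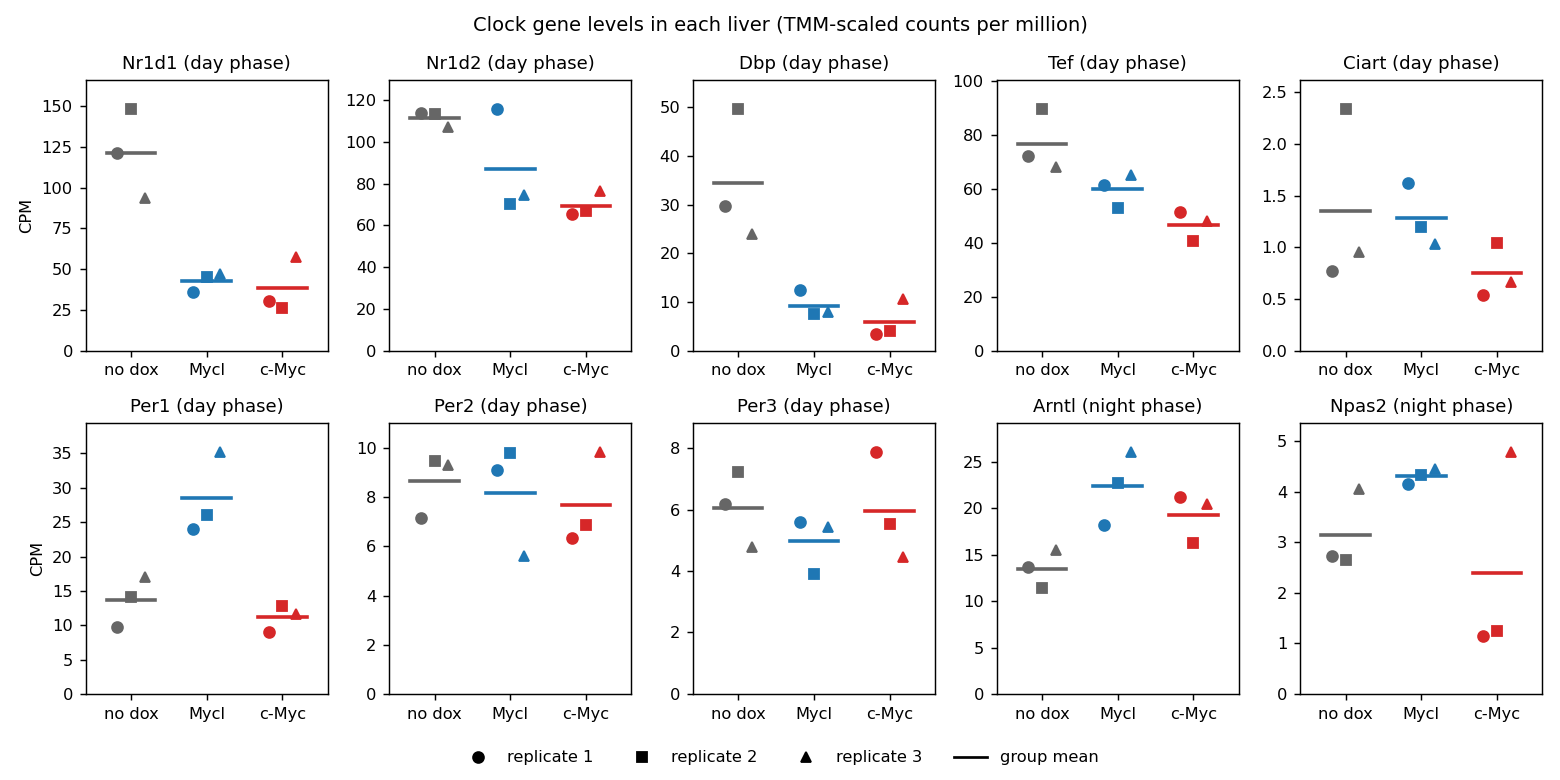
CPM of the 10 clock genes in each liver, with 1 panel per gene, points for livers and bars for group means. Nr1d1 and Dbp lie lower in all 6 induced livers than in any control liver, Arntl lies higher in all 6, and Per1 is raised in the Mycl livers but not in the c-Myc livers.

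Of the REV-ERB genes, which encode repressors of the loop, Nr1d1 was lower in both induced groups and Nr1d2 in the c-Myc livers. Nr1d1 was at 121, 148 and 93.7 CPM in control livers 1, 2 and 3, at 36.0, 45.4 and 46.9 CPM under Mycl, and at 30.7, 26.2 and 57.5 CPM under c-Myc. Each induced liver was below each control liver, and the highest induced value was that of c-Myc liver 3. Nr1d1 fell by 1.50 on the log2 scale in the Mycl livers (SE 0.29, adjusted p = 0.0267) and by 1.67 in the c-Myc livers (SE 0.29, adjusted p = 0.00374), which is 2.83-fold and 3.18-fold lower. The 2 comparisons share the control livers and are not independent. Between c-Myc and Mycl livers the log2 difference was -0.17 (SE 0.28, 95% interval -0.80 to 0.46, adjusted p = 0.733).

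Nr1d2, the second REV-ERB gene, was nearly constant among controls, at 114, 113 and 107 CPM. It was at 116, 70.5 and 74.6 CPM in Mycl livers 1, 2 and 3, and at 65.3, 66.8 and 76.3 CPM under c-Myc. Mycl liver 1 stayed at the control level, while the other 2 Mycl livers and all 3 c-Myc livers were below every control. Nr1d2 fell by 0.68 on the log2 scale in the c-Myc livers (SE 0.19, adjusted p = 0.0286), and its difference in the Mycl livers, -0.36 (SE 0.19), had an adjusted p of 0.309. Without Mycl liver 1, the Mycl difference was -0.56 and passed (adjusted p = 0.0247). That liver had the lowest reporter of its group, and also the smallest library (11013412 counts). Its Cps1, a hepatocyte marker, was at 2980 CPM, against 8170 and 8908 CPM in Mycl livers 2 and 3. What sets that liver apart was not tested. The c-Myc call was lost without any single control liver (adjusted p = 0.109, 0.113 and 0.0920 without controls 1, 2 and 3) and without c-Myc liver 1 or 2 (0.0975 and 0.126), and with libraries scaled by their totals the difference was -0.32 (adjusted p = 0.242).

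Of the 2 PAR bZIP activators on the list, Dbp moved most. It was at 29.7, 49.7 and 23.9 CPM in the controls, at 12.4, 7.48 and 7.92 CPM under Mycl, and at 3.37, 3.97 and 10.6 CPM under c-Myc. No induced liver reached the lowest control, and c-Myc liver 3 was again the highest of its group. Dbp fell by 1.91 in the Mycl livers (SE 0.43, adjusted p = 0.0441) and by 2.54 in the c-Myc livers (SE 0.44, adjusted p = 0.00386), on the log2 scale, which is 3.75-fold and 5.81-fold lower. The 95% interval of the difference between c-Myc and Mycl livers was -1.61 to 0.35 (adjusted p = 0.376).

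Tef, the other activator, was at 72.0, 89.6 and 67.9 CPM in the controls, 61.4, 52.8 and 65.1 CPM under Mycl and 51.3, 40.7 and 48.0 CPM under c-Myc. The 3 groups did not overlap, with controls highest and c-Myc livers lowest. Only the difference between c-Myc and control livers passed, where Tef fell by 0.71 on the log2 scale (SE 0.15, adjusted p = 0.0100). The Mycl livers differed from controls by -0.36 (SE 0.15, adjusted p = 0.222), and the c-Myc livers from Mycl livers by -0.36 (SE 0.15, adjusted p = 0.166). The c-Myc call was lost without control 2 (adjusted p = 0.0716), without c-Myc liver 2 (0.0645) or with library totals (-0.36, adjusted p = 0.0880).

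Nr1d1 and Dbp each share exon sequence with a gene on the opposite strand. Nr1d1 (chr11:98767932-98775333, minus strand) shares 263 bases, 8.55% of its exon length, with Thra, a thyroid hormone receptor gene, which was at 17.1 ± 1.51, 15.01 ± 0.527 and 13.9 ± 1.71 CPM in control, Mycl and c-Myc livers and did not pass in any comparison. Dbp (chr7:45705088-45710203, plus strand) shares 539 bases, 18.01%, with Sphk2, a sphingosine kinase gene. Sphk2 was at 68.1 ± 9.10, 50.1 ± 3.63 and 48.3 ± 7.08 CPM, and fell by 0.50 on the log2 scale in the c-Myc livers (adjusted p = 0.0391). Tef and Arntl share shorter stretches, 193 bases (2.45%) and 33 bases (0.44%), with opposite-strand genes that have no row in the counts. The libraries keep strand per the labels, but the strand setting of the counting is not given in the sources used here, so reads of the shared stretches may not be separated.

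Ciart, a repressor of the CLOCK and BMAL1 pair, was the least abundant of the genes. Its counts were 10 to 37 per library, which gave 0.766, 2.34 and 0.955 CPM in the controls, 1.63, 1.19 and 1.04 CPM under Mycl and 0.543, 1.04 and 0.665 CPM under c-Myc. The groups overlapped, with control 2 above all other livers and c-Myc livers 1 and 3 below every control. With log2 differences of -0.10 (SE 0.45, adjusted p = 0.915) for Mycl and -0.84 (SE 0.46, adjusted p = 0.229) for c-Myc, neither comparison of Ciart passed, and without control 2 the Mycl difference was 0.62.

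The Per genes, which encode the period repressors, did not move together. Per1 was at 9.80, 14.1 and 16.9 CPM in the controls, at 24.0, 26.1 and 35.2 CPM under Mycl and at 8.96, 12.8 and 11.6 CPM under c-Myc. Each Mycl liver was above all controls and all c-Myc livers, while c-Myc and control livers overlapped. Per1 rose by 1.07 in the Mycl livers (SE 0.23, adjusted p = 0.0389), a 2.10-fold difference, and differed by -0.28 in the c-Myc livers (SE 0.23, adjusted p = 0.427). Tested directly, Per1 was lower in c-Myc than in Mycl livers by a log2 difference of -1.35 (SE 0.23, 95% interval -1.87 to -0.83, adjusted p = 0.0170).

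Per2 and Per3 showed no difference that passed. Per2 was at 7.17, 9.49 and 9.31 CPM in the controls, 9.13, 9.81 and 5.61 CPM under Mycl and 6.36, 6.89 and 9.85 CPM under c-Myc. The 95% intervals of its log2 differences from the controls were -0.64 to 0.48 for Mycl (adjusted p = 0.874) and -0.73 to 0.39 for c-Myc (adjusted p = 0.667). Per3, which was at 6.18, 7.21 and 4.77 CPM in the controls, 5.60, 3.90 and 5.42 CPM under Mycl and 7.88, 5.54 and 4.46 CPM under c-Myc, had intervals of -0.87 to 0.28 (adjusted p = 0.535) and -0.59 to 0.54 (adjusted p = 0.956). The values of both genes overlapped between all groups.

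The activator gene Arntl lay on the other side of the controls. It was at 13.6, 11.4 and 15.5 CPM in the controls, at 18.3, 22.8 and 26.1 CPM under Mycl, and at 21.2, 16.2 and 20.5 CPM under c-Myc. All 6 induced livers were above all 3 controls. The log2 differences were 0.73 for Mycl (SE 0.18, 95% interval 0.32 to 1.14, adjusted p = 0.0609) and 0.52 for c-Myc (SE 0.18, 95% interval 0.11 to 0.92, adjusted p = 0.0720), so neither passed the threshold of 0.05 after adjustment. With DESeq2, which called 7.70% of genes for Mycl and 22.4% for c-Myc, both passed (adjusted p = 0.00740 and 0.0376). Without Mycl liver 1 both passed as well (0.91, adjusted p = 0.0204, and 0.56, adjusted p = 0.0193), and without c-Myc liver 2 the Mycl difference passed (0.77, adjusted p = 0.0467).

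Npas2, whose product can stand in for CLOCK, was at 2.74, 2.66 and 4.06 CPM in the controls, at 4.16, 4.34 and 4.45 CPM under Mycl, and at 1.14, 1.25 and 4.79 CPM under c-Myc. The Mycl livers were just above the highest control. The c-Myc livers were split, with livers 1 and 2 below all others and liver 3 above all others. The log2 differences, 0.47 for Mycl (SE 0.47, adjusted p = 0.587) and -0.42 for c-Myc (SE 0.48, adjusted p = 0.577), did not pass. Without c-Myc liver 3 the c-Myc difference was -1.38 (adjusted p = 0.00767). That liver had the lowest reporter and Myc level of its group (Myc 81.8 CPM, against 214 and 270 CPM), and the highest Nr1d1, Dbp and Npas2. Without it, Nr1d1 was lower by a log2 difference of -2.09 (adjusted p = 0.000665) and Dbp of -3.23 (adjusted p = 0.000809). In the Mycl group, liver 1 had the lowest reporter (52.3 CPM), with the highest Dbp (12.4 CPM) but the lowest Nr1d1 (36.0 CPM) and Npas2 (4.16 CPM). Whether the transgene level bears on these values was not tested.

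Counted together, the Mycl livers had 1 gene higher (Per1) and 2 lower (Nr1d1 and Dbp) of the 10 clock genes, against a background of 3.20% of all tested genes passing in either direction, 2.24% as higher and 0.964% as lower. Apart by non-overlapping groups were 6 of the 10, against 29.4% of all genes. None of the 3 calls held without any single control liver or without Mycl liver 3. Leaving out controls 1, 2 and 3 in turn gave adjusted p-values of 0.103, 0.114 and 0.0687 for Nr1d1, of 0.121, 0.172 and 0.0971 for Dbp, and of 0.121, 0.114 and 0.0713 for Per1, and leaving out Mycl liver 3 gave 0.0703, 0.126 and 0.0885. Dbp was also lost without Mycl liver 2 (0.0810) or c-Myc liver 1 (0.0502), with upper-quartile factors (0.0503), with a minimum count of 50 (0.0507) and with the replicate block (0.0718). Per1 was also lost without c-Myc liver 1 (0.0541) or 3 (0.0543) and in a fit of the 6 libraries compared (0.0703).

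In the c-Myc livers 4 of the 10 genes were lower (Nr1d1, Nr1d2, Dbp and Tef) and none was higher with edgeR, where 20.7% of all tested genes passed, 11.8% as higher and 8.88% as lower. Arntl was the 1 gene above the controls at an unadjusted p under 0.05, and the 1 higher with DESeq2. At that unadjusted p, 2240 of the 12651 tested genes were higher. Groups did not overlap for 5 of the 10 genes, and for 50.7% of all genes, so that count stands at the background. The Nr1d1 and Dbp calls held under each of the 18 alternatives tried, which include leaving out each library. Between c-Myc and Mycl livers 1 of the 10 genes passed, Per1, where 6.77% of all genes did (4.14% as higher and 2.63% as lower), and 2 of the 10 had groups that did not overlap, where 25.7% of all genes did. The Per1 call was lost without c-Myc liver 1 (-1.22, adjusted p = 0.0673) or 2 (-1.46, adjusted p = 0.0579).

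**Figure D2:**
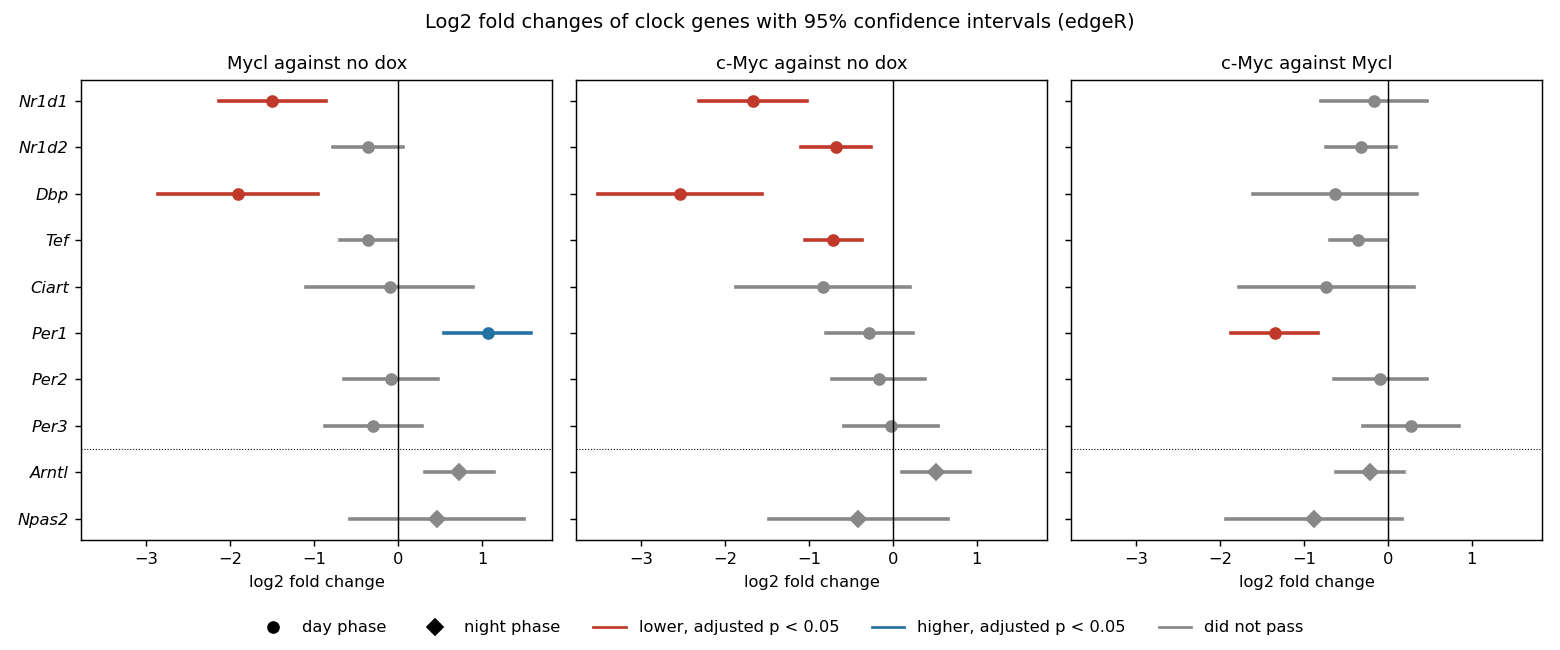
Fitted log2 fold changes of the 10 clock genes with 95% intervals in the 3 comparisons, red for lower and blue for higher at an adjusted p under 0.05 and grey for the rest, with circles for day-phase and diamonds for night-phase genes. Nr1d1 and Dbp pass below 0 in both comparisons with controls, Per1 passes above 0 for Mycl and below 0 for c-Myc against Mycl, and the intervals of Per2 and Per3 cross 0 throughout.

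Since the hour of collection is not given, the signs of day-phase and night-phase genes were set side by side. In the Mycl livers 7 of 8 day-phase genes had a log2 difference below 0, the exception being Per1, and both night-phase genes were above 0. The c-Myc livers had 8 of 8 day-phase genes below 0, and of the night-phase genes Arntl was above 0 and Npas2 below. Over all tested genes 49.2% were below 0 for Mycl and 54.8% for c-Myc. Several of these signs belong to differences near 0 that turn with the scaling, Ciart and Per2 for Mycl and Per1, Per2 and Per3 for c-Myc. The median difference of the day-phase genes was -0.33 for Mycl and -0.70 for c-Myc, beside 0.01 and -0.05 over all genes.

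Within each liver, the ratio of Nr1d1 to Arntl needs no scaling between libraries. Measured as CPM per kb, Nr1d1 was 21.7, 31.8 and 14.8 times Arntl in the controls. The ratio was 4.83, 4.87 and 4.40 under Mycl and 3.55, 3.94 and 6.87 under c-Myc. The ratio of Dbp to Arntl was 3.88 to 10.96 in the controls, 0.763 to 1.70 under Mycl and 0.400 to 1.31 under c-Myc. Nr1d1 and Dbp were each lower, and Arntl higher, in every induced liver than in any control. Both ratios had to separate the groups for that reason, so they are no further test. Among the controls too, liver 2 had the highest Nr1d1 and Dbp with the lowest Arntl, and liver 3 the lowest Nr1d1 and Dbp with the highest Arntl.

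**Figure D3:**
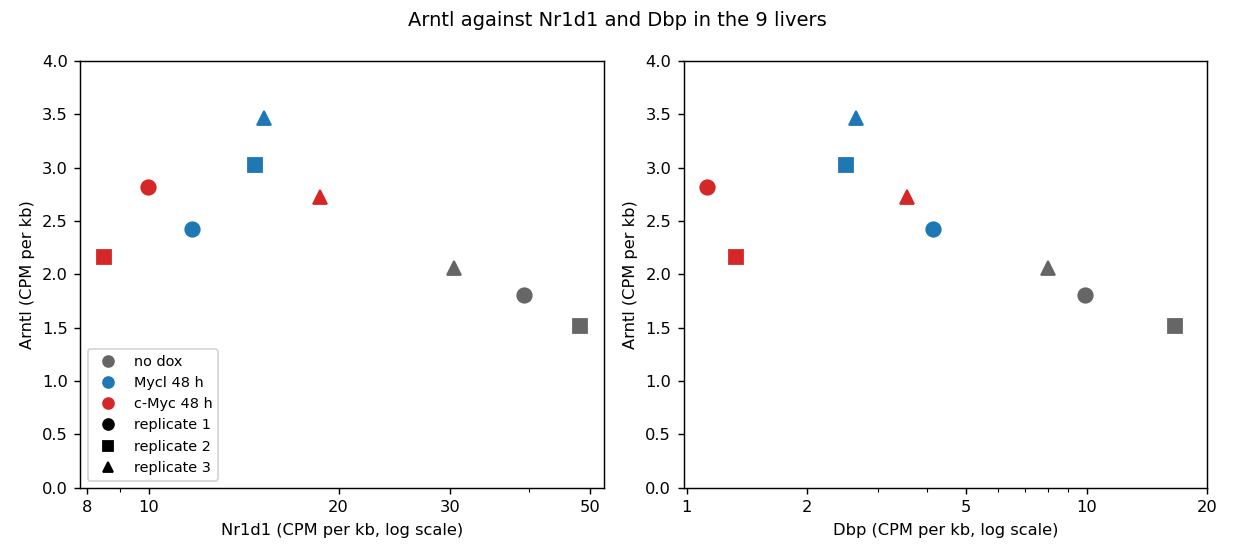
Arntl (CPM per kb) against Nr1d1 and Dbp (CPM per kb, log axis) in the 9 livers, coloured by group with a marker for each replicate. The 3 controls lie at the lower right, with Nr1d1 at least 14.8 times Arntl, and the 6 induced livers at the upper left, with Nr1d1 at most 6.87 times Arntl.

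Among 10 other transcription factors and repressors of the clock, 1 was lower in the Mycl livers and 2 were higher and 3 lower in the c-Myc livers. Over all tested genes, 3.20% passed for Mycl, 0.964% as lower, and 20.7% for c-Myc, 11.8% as higher and 8.88% as lower. Bhlhe41, which encodes the repressor DEC2, was at 3.67, 5.44 and 3.18 CPM in the controls, 0.813, 0.813 and 0.548 CPM under Mycl and 0.815, 1.04 and 1.93 CPM under c-Myc. Every induced liver was below every control, at counts of 9 to 86 per library. Bhlhe41 shares 1280 bases, 19.0% of its exon length, with Gm43909 on the opposite strand, which has no row in the counts. Reads of that stretch may not be separated either. Bhlhe41 fell by 2.50 in the Mycl livers (SE 0.38, adjusted p = 0.0113) and by 1.72 in the c-Myc livers (SE 0.35, adjusted p = 0.00823) on the log2 scale. The Mycl call was lost without control 1 (adjusted p = 0.0549). Its relative Bhlhe40, which encodes DEC1, was far more abundant at 130 ± 38.8, 57.1 ± 12.7 and 72.9 ± 23.6 CPM in control, Mycl and c-Myc livers, with differences of -1.19 (adjusted p = 0.0609) and -0.83 (adjusted p = 0.0712) that did not pass.

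The cryptochrome genes, which encode the partners of PER, went opposite ways in the c-Myc livers. Cry1 was at 9.52, 8.03 and 9.71 CPM in the controls, 10.7, 15.6 and 9.69 CPM under Mycl and 17.98, 19.7 and 14.2 CPM under c-Myc, and rose by 0.93 on the log2 scale with c-Myc (SE 0.21, adjusted p = 0.0126). The groups of Cry1 overlapped between Mycl and control livers (0.40, adjusted p = 0.310). Cry2 was at 38.1, 45.4 and 44.3 CPM in the controls, 38.0, 35.6 and 31.3 CPM under Mycl and 20.7, 16.5 and 27.1 CPM under c-Myc. It fell by 0.99 with c-Myc (SE 0.18, adjusted p = 0.00487), and the c-Myc livers were also below the Mycl livers by a difference of -0.71 (SE 0.18, adjusted p = 0.0456). That last call held without c-Myc liver 3 (adjusted p = 0.0119) and was lost without each of the other 8 libraries, with adjusted p-values of 0.0594 to 0.162, and with library totals (-0.50, adjusted p = 0.0686) or a fit of the 6 libraries compared (0.131). The Cry1 call was lost without control 2 (0.0509).

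Nfil3, which encodes a D-box repressor, was at 31.7 ± 6.89 CPM in the controls, 44.6 ± 6.28 CPM under Mycl and 47.4 ± 7.47 CPM under c-Myc. It rose by 0.58 with c-Myc (SE 0.19, adjusted p = 0.0497) and differed by 0.50 with Mycl (adjusted p = 0.176). Hlf, the third PAR bZIP gene, was at 60.7 ± 2.06, 46.4 ± 4.41 and 43.3 ± 5.57 CPM, fell by 0.49 with c-Myc (SE 0.13, adjusted p = 0.0269) and differed by -0.39 with Mycl (adjusted p = 0.138). Both calls were lost without any of 5 single libraries, at 0.0747 to 0.154 for Nfil3 and 0.0581 to 0.124 for Hlf. With library totals the Hlf difference was -0.12 (adjusted p = 0.574). Clock, Rora and Cipc did not pass in any comparison, with log2 differences from -0.43 to 0.19. Clock, the main partner of BMAL1, was at 111 ± 8.60, 99.99 ± 11.4 and 95.1 ± 4.90 CPM.

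Of 9 kinases and ubiquitin ligases that act on the clock proteins, only Btrc passed, a ligase subunit that marks PER proteins for breakdown. Btrc was lower in the c-Myc livers by a log2 difference of -0.45 (adjusted p = 0.0271), where 8.88% of all tested genes passed as lower. The call held under 12 of 18 alternatives. It was lost without control 1, 2 or 3 (adjusted p = 0.127, 0.0933 and 0.145) or c-Myc liver 1 or 2 (0.0759 and 0.118), and with library totals the difference was -0.094 (adjusted p = 0.639). None of the 9 passed for Mycl, with edgeR or with DESeq2, and 0 had an unadjusted p under 0.05. At that unadjusted p, 1395 of the 12651 tested genes were higher and 1146 lower. The smallest adjusted p there was that of Gsk3b (0.353).

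**Figure D4:**
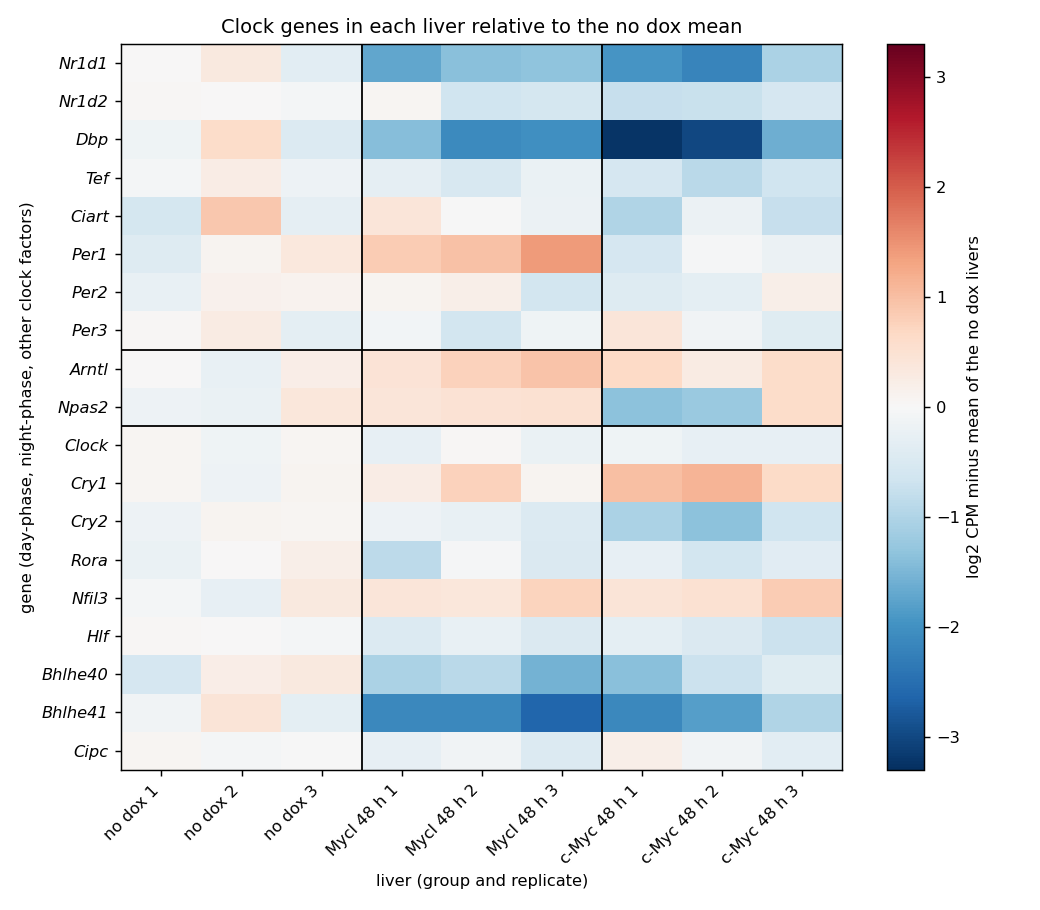
Log2 CPM of clock genes in each liver, given as the deviation from the control mean, with rows for genes and columns for the 9 livers. Dbp is lowest in c-Myc livers 1 and 2, at -3.24 and -3.01, and c-Myc liver 3 lies nearer to the controls at -1.61.

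Liver genes under clock control did not follow a single direction. Of 18 such genes, 2 were higher and 1 lower in the Mycl livers, where 3.20% of all tested genes passed, and 2 were higher and 4 lower in the c-Myc livers, where 20.7% did. Ppara, which encodes the fatty acid receptor PPAR-alpha and is a known target of the clock, was at 238, 250 and 252 CPM in the controls, 103, 146 and 114 CPM under Mycl and 127, 89.0 and 112 CPM under c-Myc. The 6 induced livers all lay well below the controls. Ppara fell by 1.03 with Mycl (SE 0.18, adjusted p = 0.0198) and by 1.17 with c-Myc (SE 0.18, adjusted p = 0.00206), and the Mycl call was lost without control 1, 2 or 3 or Mycl liver 3 (adjusted p = 0.0911, 0.0841, 0.0965 and 0.0703).

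Lpin1, which encodes a phosphatidate phosphatase and coactivator, split the induced groups. It was at 77.7, 95.001 and 113 CPM in the controls, 242, 286 and 296 CPM under Mycl and 54.1, 67.9 and 60.7 CPM under c-Myc. The 3 groups did not overlap. Lpin1 rose by 1.53 with Mycl (SE 0.17, adjusted p = 0.00465) and fell by 0.65 with c-Myc (SE 0.17, adjusted p = 0.0259), and the c-Myc livers were below the Mycl livers by a difference of -2.17 (SE 0.18, adjusted p = 0.000759). The fall with c-Myc was lost without control 2 or 3 or c-Myc liver 1 or 2 (adjusted p = 0.103, 0.151, 0.103 and 0.0611), and with library totals the difference was -0.28 (adjusted p = 0.287).

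Alas1, the rate-limiting enzyme of heme synthesis, was at 59.1, 54.7 and 87.8 CPM in the controls, 166, 138 and 392.5 CPM under Mycl and 91.4, 63.7 and 103 CPM under c-Myc. Its Mycl values were all above the controls, with liver 3 far above the others. It rose by 1.79 with Mycl (SE 0.38, adjusted p = 0.0381), and the call was lost without control 1, 2 or 3 (0.139, 0.138 and 0.0911), Mycl liver 3 (1.23, adjusted p = 0.0602) or c-Myc liver 1 or 3 (0.0626 and 0.0524), with limma-voom (0.0513) or in a fit of the 6 libraries compared (0.0780). Among genes that passed with c-Myc, Avpr1a, a vasopressin receptor gene, fell by 0.98 (SE 0.17, adjusted p = 0.00374), Upp2, a uridine phosphorylase gene, fell by 1.80 (SE 0.41, adjusted p = 0.0128), and E2f8, a cell cycle repressor gene, rose by 1.71 (SE 0.34, adjusted p = 0.00761). The Upp2 call was lost without control 2 (0.0570) or c-Myc liver 1 (0.0548). The 4 cycling cell markers were all higher with c-Myc, where 11.8% of all tested genes passed as higher. They were all higher with Mycl too, where 2.24% of all tested genes did and E2f8 did not pass (0.10, adjusted p = 0.887). The part of dividing cells in these values was not tested.

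**Figure D5:**
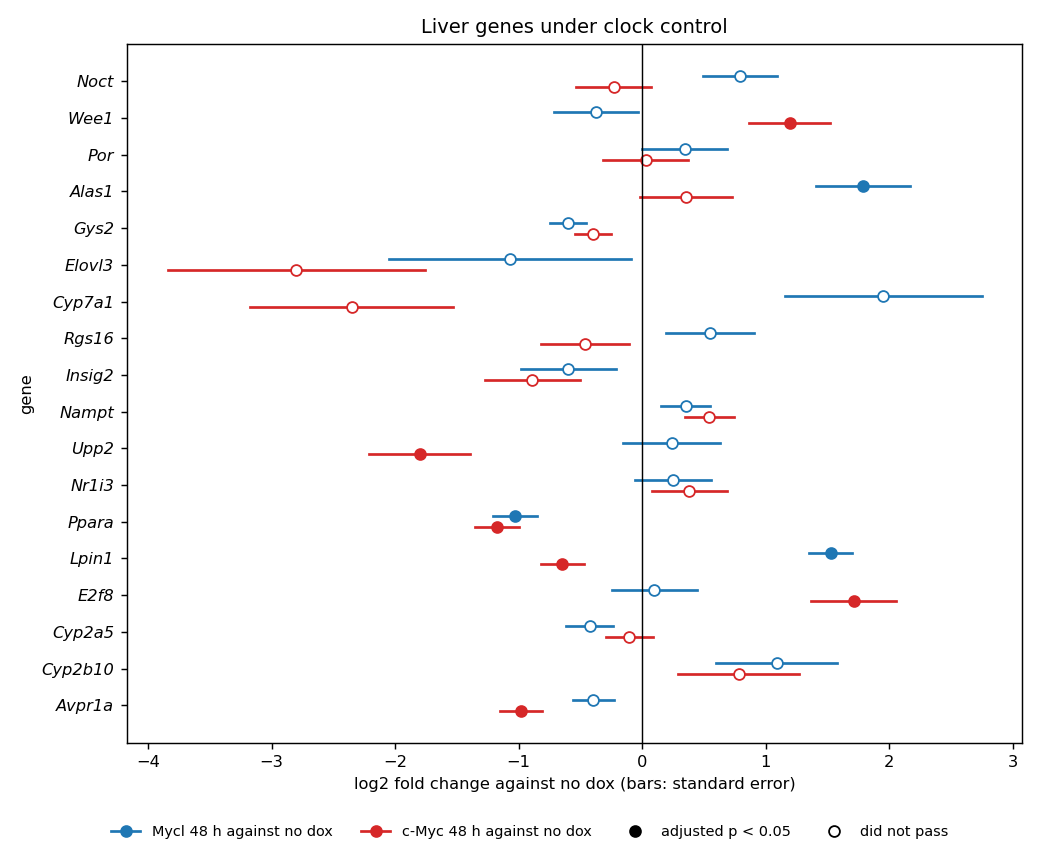
Log2 fold changes against control livers of 18 liver genes under clock control, with standard errors, for Mycl and c-Myc, filled points passing at an adjusted p under 0.05. Ppara passes below 0 in both, whereas Lpin1 lies at 1.53 for Mycl and -0.65 for c-Myc.

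Genes that respond to signals able to reset the liver clock were read beside the clock genes. Over all tested genes, 3.20% passed with Mycl and 20.7% with c-Myc. At an unadjusted p under 0.05, 1395 of the 12651 tested genes were higher and 1146 lower with Mycl. Of 6 glucocorticoid-induced genes none passed with Mycl, where Per1 rose, and the differences of Fkbp5 and Tsc22d3 were 1.02 (adjusted p = 0.127) and 0.74 (adjusted p = 0.179). At an unadjusted p under 0.05 2 were higher and 1 lower with Mycl, and DESeq2 called Fkbp5 higher. With c-Myc, Dusp1 of that list fell by 1.20 (adjusted p = 0.0189), and Tsc22d3 was lower in c-Myc than in Mycl livers by a difference of -1.35 (adjusted p = 0.0289). The Dusp1 call held under 14 and the Tsc22d3 call under 11 of 18 alternatives. Of 9 fasting-induced genes none passed with Mycl (1 higher and 4 lower at an unadjusted p under 0.05, and 1 higher, Ppargc1a, and 1 lower with DESeq2), and 2 were lower with c-Myc, among them Angptl4, which fell by 0.93 (adjusted p = 0.0105). Of 7 tested feeding-induced genes none passed with Mycl (1 lower at an unadjusted p under 0.05, and Scd1 lower with DESeq2), and Scd1 fell with c-Myc by 2.39 (adjusted p = 0.00962). The parts of feeding state and of glucocorticoids in the clock gene values were not tested.

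Temperature-responsive genes were mostly chaperone genes. Of 8, Hspa1b alone passed with Mycl, where 3.20% of all tested genes did. It fell by 0.89 (adjusted p = 0.0441), a call that held under 5 of 18 alternatives. With c-Myc, where 20.7% of all tested genes passed, 4 were higher and Hspa1b fell by 1.46 (adjusted p = 0.00136). The 4 were Hsph1 by 1.94 (adjusted p = 0.00113), Hsp90aa1 by 1.35 (adjusted p = 0.00189), Hspa8 by 0.96 (adjusted p = 0.0111) and Rbm3 by 1.13. Rbm3, which is not a chaperone gene, also differed by 1.18 with Mycl but did not pass (adjusted p = 0.0540). Cirbp of the same list was lower on average in both induced groups and passed in neither. It was at 16.2, 15.8 and 12.97 CPM in the controls, 13.7, 10.2 and 11.2 CPM under Mycl and 9.02, 7.21 and 14.4 CPM under c-Myc. With c-Myc, 5 of the 8 genes had a log2 difference above 0 and 3 below, so the list had no single direction. Of 7 immediate early genes, which respond within minutes to many stimuli and can include handling, Junb fell with Mycl by 1.49 (adjusted p = 0.0374), and Egr1 and Atf3 rose with c-Myc by 1.16 (adjusted p = 0.0262) and 1.73 (adjusted p = 0.0286). The Junb call held under 9 of 18 alternatives, with an adjusted p of up to 0.133, reached without control 3. The Egr1 call held under 13 (up to 0.0977, without c-Myc liver 1) and the Atf3 call under 15 (up to 0.119, without c-Myc liver 2). The parts of temperature and handling in the clock gene values were not tested.

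The genes most like Nr1d1 and Arntl over the 9 livers were named by Pearson's r of log2 CPM among 9465 genes. For Nr1d1 they included Mgrn1 (r = 0.984), Ces1e (0.983), Ephx2 (0.980) and Ces1d (0.977). Ces1e, a carboxylesterase gene with close relatives whose reads may be shared, was at 197, 226 and 169 CPM in the controls, 68.9, 88.9 and 80.7 CPM under Mycl and 65.1, 69.8 and 113 CPM under c-Myc, with c-Myc liver 3 again the highest induced liver. For Arntl they were Ppp4r4 (0.937), Tbc1d8 (0.915), Orm2 (0.907), Ncf1 (0.905) and Lcn2 (0.905). The livers share group differences of many genes, so these values describe a common pattern over groups.

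Markers of other cells also differed between groups. Over all tested genes, 2.24% passed as higher and 0.964% as lower with Mycl, and 11.8% and 8.88% with c-Myc. The summed CPM of 6 neutrophil and monocyte markers was 6.46 to 8.12 in the controls, 20.8 to 27.6 under Mycl and 15.4 to 26.9 under c-Myc, and 2 of the 6 passed as higher in each. The sum of 6 Kupffer cell markers was 281 to 319, 294 to 380 and 163 to 246 CPM. The sum of 6 sinusoidal endothelium markers was 301 to 387, 204 to 315 and 201 to 268 CPM, and none of the 6 passed with edgeR. At an unadjusted p under 0.05, 1 was lower with Mycl and 3 with c-Myc. At that unadjusted p, 1146 of the 12651 tested genes were lower with Mycl and 2177 with c-Myc. The sum of 6 stellate cell markers was 556 to 697, 508 to 1103 and 897 to 1766 CPM, with Col1a1 passing as higher with c-Myc. The median log2 difference of the 6 with c-Myc was 0.06, with 4 above 0 and 2 below. Mean CPM in control and c-Myc livers was 64.0 and 457 for Col1a1 and 222 and 445 for Col3a1. It was 168 and 107 for Reln, 135 and 126 for Dcn, 34.3 and 35.2 for Lrat, and 25.8 and 27.4 for Hgf. Erythroid markers summed to 203 to 273, 127 to 455 and 48.1 to 98.5 CPM, and all 4 tested fell with c-Myc. No marker of these lists was at 0 in all libraries, and the part of cell composition in the clock gene values was not tested.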

How the data were processed

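Liver RNA was sequenced from 9 samples, in directional libraries per the labels' protocols. The submitters' processing notes name STAR 2.7.8a, cutadapt 3.0, DESeq2 1.30.0 and HTSeq 0.11.2 and the build mm10. The authors deposited raw read counts per gene for 21703 rows, and 21588 identifiers had a symbol. Annotation release and strand setting: not given in the sources used here.

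R 4.3.3 and edgeR 4.0.16 were used. A filter (filterByExpr, minimum count 10) kept 12651 genes, TMM scaled the libraries, and a quasi-likelihood fit over 9 libraries left 6 residual degrees of freedom. Benjamini-Hochberg adjustment ran over all 12651 genes at a threshold of 0.05. Standard errors are the size of the log2 fold change over the root of F. CPM uses the TMM-scaled sizes, with lengths and positions from GENCODE M21 (GRCm38). Likeness used genes with a mean of at least 5 CPM and a prior count of 2.

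The members and gene lists were chosen with earlier results of these data known. Named are all members, all other listed clock transcription factors, up to 4 genes of each other list per comparison with the smallest adjusted p, and the 5 genes most like Nr1d1 and Arntl. Some genes that this rule names are not reported here. Alternatives were RLE, upper-quartile and library-total scaling, no count filter, a minimum count of 50, DESeq2 1.42.0, limma 3.58.1 voom, a fit of only the 6 libraries compared, the replicate number as a block, and each library left out in turn. The labels do not say that same-numbered livers are pairs, so the numbers entered only as the block of that alternative. Deviations of same-numbered livers from their group means correlated at -0.19 to 0.31, the highest for control 1 with Mycl liver 1. With 3 livers per group these values cannot decide whether the livers were paired. Replicates differed by more than sampling noise, with chi-square values of 10.5 to 208 per degree of freedom. The procedure was tested on simulated data over 3 draws. Each draw changed a small set of genes in 1 group, up or down at random, around means shared by all groups. In the data far more genes moved, with 2614 of 12651 called for c-Myc against control. The rates below therefore do not measure the power or error of the comparisons reported here. In the simulated Mycl against control comparison, on 12508 to 12533 genes, 47.7% of 2-fold and 94.0% of 4-fold changes were recovered and 6.18% of calls were false. For simulated c-Myc against control, on 12533 to 12548 genes, the values were 48.0%, 93.0% and 5.37%, and for simulated c-Myc against Mycl, on 12530 to 12539 genes, 48.0%, 93.3% and 5.57%. Intervals cover 95%.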

Additional observations from a re-analysis of the deposited data

Results flagged for a closer look

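Per1 differed between the induced groups when the difference was tested directly, with c-Myc livers below Mycl livers by a log2 difference of -1.35 (SE 0.23, adjusted p = 0.0170). It was lower in 3 of 3 c-Myc livers than in any Mycl liver, and it is the only member of the 10 clock genes for which this comparison passed.

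Outside the 10 genes, 6 of the other clock factors and liver genes under clock control also differed between c-Myc and Mycl livers. They were 1 lower of 10 other clock factors, and 2 higher and 3 lower of 18 liver genes. Over all tested genes, 6.77% passed in this comparison, 4.14% as higher and 2.63% as lower. Cry2, which encodes a partner of PER, differed by -0.71 (SE 0.18, adjusted p = 0.0456). Lpin1 differed by -2.17 (SE 0.18, adjusted p = 0.000759) and Upp2 by -2.04 (SE 0.41, adjusted p = 0.0255). E2f8 was higher in c-Myc livers by 1.61 (SE 0.34, adjusted p = 0.0300). Wee1, a mitotic kinase gene under clock control that was named because it passed and not by the naming rule, was higher by 1.57 (SE 0.33, adjusted p = 0.0301), at 17.0, 18.9 and 7.72 CPM in the c-Myc livers and 3.79, 4.45 and 6.40 CPM in the Mycl livers. Of 18 alternatives, the Wee1 call held under 12, with an adjusted p of up to 0.118, and the Upp2 and E2f8 calls under 14 each.

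Cyp7a1, the rate-limiting enzyme of bile acid synthesis, differed by -4.30 (SE 0.89, adjusted p = 0.0276). It was at 66.8, 47.2 and 91.1 CPM in the controls, 62.3, 65.5 and 666 CPM under Mycl and 17.4, 9.04 and 13.8 CPM under c-Myc. Mycl liver 3 stood far above the other Mycl livers, which overlapped with the controls. Neither comparison with the controls passed for Cyp7a1 (adjusted p = 0.207 for Mycl and 0.0690 for c-Myc). Without Mycl liver 3 the difference between c-Myc and Mycl livers was -2.26 (adjusted p = 0.0148), and the call was lost without c-Myc liver 1 (0.0853) or 2 (0.123) and in a fit of the 6 libraries compared (0.0831).

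Among the genes read as signs of glucocorticoids, feeding state, temperature or handling, 5 differed between c-Myc and Mycl livers. They were 1 of 6 glucocorticoid-induced, 1 of 9 fasting-induced, 0 of 7 tested feeding-induced, 2 of 8 temperature-responsive and 1 of 7 immediate early genes. Over all tested genes, 6.77% passed in this comparison. Tsc22d3 was lower in c-Myc livers by a log2 difference of -1.35 (adjusted p = 0.0289) and Ppargc1a by -0.70 (adjusted p = 0.0383). Hsp90aa1 was higher by 1.22 (adjusted p = 0.0157), Hsph1 by 1.48 (adjusted p = 0.0173) and Atf3 by 2.06 (adjusted p = 0.0369). Of 18 alternatives, the Ppargc1a call held under 9, the Tsc22d3 and Atf3 calls under 11 each, and the Hsp90aa1 and Hsph1 calls under 15 each. The highest adjusted p was 0.149 for Ppargc1a and 0.148 for Atf3.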

How the results depend on the processing

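The settings moved counts of calls more than they moved directions. With Mycl, members higher were 2 with upper-quartile factors, library totals or DESeq2 and 0 with the 6 libraries compared. Members lower were 1 with upper-quartile factors, a minimum count of 50 or the replicate block. All genes lower were 78, 69, 332, 68, 64 and 69 with upper-quartile factors, library totals, DESeq2, limma-voom, the 6 libraries compared and the replicate block, and all genes higher were 714 with DESeq2 and 132 with limma-voom, beside 283 higher and 122 lower as reported. With c-Myc, members higher were 1 with library totals, DESeq2 or the 6 libraries compared (Arntl each time), and members lower were 2 with library totals. All genes higher and lower, 1490 and 1124 as reported, were 3181 and 337 with library totals and 2325 and 1784 with the 6 libraries compared. For c-Myc against Mycl, all genes higher and lower, 524 and 333 as reported, were 993 and 710 with DESeq2 and 35 and 39 with the 6 libraries compared, and 1456 were higher with library totals. Library totals raised the median log2 difference of all genes to 0.14, 0.31 and 0.20 in the 3 comparisons. The cause of the moves was not tested for any setting.

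Leaving out each library gave 0 to 2 members higher and 0 to 3 lower with Mycl, 0 to 1 and 2 to 5 with c-Myc, and 0 to 0 and 0 to 3 between them. All genes higher and lower ran from 17 to 539 and 9 to 178, from 897 to 2402 and 300 to 1844, and from 40 to 979 and 27 to 572.

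Differences near 0 changed sign. With library totals, Ciart and Per2 were 0.042 and 0.056 for Mycl, Per1, Per2 and Per3 were 0.087, 0.18 and 0.34 for c-Myc, and Nr1d1, Per2 and Arntl were 0.036, 0.13 and 0.0094 between them. Ciart was 0.048 for Mycl with limma-voom. Per3 for c-Myc was 0.019, 0.026, 0.020 and 0.024 with RLE, upper-quartile factors, DESeq2 and the 6 libraries compared. Leaving out each library moved Ciart from -0.35 to 0.62 and Per2 from -0.19 to 0.19 for Mycl, Per3 from -0.28 to 0.17 for c-Myc, and Nr1d1 from -0.59 to 0.049 and Per2 from -0.31 to 0.065 between them. None of these values passed.

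With the replicate number as a block, Dbp no longer passed for Mycl (-1.90, adjusted p = 0.0718), nor did Cry2 between c-Myc and Mycl (-0.72, adjusted p = 0.0652). The 9 pairs of same-numbered livers had correlations of -0.19 to 0.31, with 1 over 0.1. Low counts limit Ciart and Bhlhe41, and Ciart had no value at a minimum count of 50.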
